A study of Mus musculus with 8 samples.

Results

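Cultured mouse embryonic fibroblasts labelled as knockouts of Kdm3a were compared with wild-type (WT) fibroblasts while both were fed. The members of the comparison are 4 of the 8 RNA sequencing libraries of the study, 2 titled as knockout and 2 as WT, all at 0 h. Both groups were C57BL/6 cells at passages 3 to 5, grown in DMEM with 10% FBS and antibiotics and given no other treatment. The other 4 libraries came from the same genotypes after 12 h in DMEM without glucose and with 10% dialyzed FBS, and are described below only where they show whether a fed difference was also present without glucose. All 8 libraries entered 1 fit, so the starved libraries also bear on the estimate of the spread, and thus on each standard error, p-value and call of the fed comparison. The labels do not describe the knockout allele, the number of embryos or the relation of the replicates to cultures. P-values therefore measure only the spread between these libraries, which may be technical.

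Kdm3a encodes a demethylase that removes methyl groups from histone H3 at K9, a modification associated with silent chromatin, and it acts as a coactivator for nuclear receptors and for the hypoxia response. Embryonic fibroblasts are a mixed connective tissue population that secretes collagen-rich matrix, forms actin stress fibres in culture and keeps a Hox gene pattern that reflects the body region the cells came from. They also carry a complete type I interferon pathway: sensors of foreign nucleic acid switch on interferon genes, secreted interferon acts on a receptor, and STAT and IRF proteins then switch on a large set of antiviral genes.

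Reads were counted per RefSeq transcript, and of several transcript rows of a symbol the one with the most counts was used. The fed WT libraries held 39781776 and 38407520 counts on this basis and the fed KO-labelled libraries 52443103 and 42697301. Levels are given as CPM (counts divided by the library total after TMM scaling), in the order of the replicate numbers, and differences as log2 fold change of KO-labelled over WT ± its standard error (edgeR quasi-likelihood test, n = 2 libraries in each group). A gene is called higher or lower where its adjusted p was under 0.05, and its p is printed where it was not. For each gene called so below, both KO-labelled values lay on the same side of both WT values. At a depth of this size 3 counts correspond to 0.0695 and 0.0718 CPM in the WT libraries and to 0.0486 and 0.0596 CPM in the KO-labelled libraries. Folds against a group with 0 counts are lower bounds computed with 3 counts per library, and intervals and bounds cover counting error only. Per-gene levels are not corrected for transcript length, so CPM values are compared between libraries and not between genes.

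The labels were checked first. Kdm3a stood at 56.1 and 56.4 CPM in WT against 55.2 and 55.4 CPM in KO-labelled libraries, a log2 difference of -0.024 ± 0.043 (adjusted p = 0.619). Counts over a whole transcript do not show single exons, and the loss of a small part of it could go unseen. The cells are therefore called KO-labelled throughout. Xist, which coats the inactive X, and the Y-linked genes did not match between the genotypes: Xist stood at 1.34 and 0.981 CPM in WT and at 883.5 and 869 CPM in KO-labelled libraries, and Ddx3y, Eif2s3y, Kdm5d and Uty held 520 to 1179 counts in each WT library and 0 in both KO-labelled libraries. Genotype and sex of the cells therefore cannot be told apart in any result below, and X and Y genes are not named further. Of the 10 tested genes nearest to Kdm3a on either side, 15 of 20 passed the threshold (74.4% of all genes tested did), 1 was higher and 1 lower by over 2-fold, and their median log2 fold change was -0.33.

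Fibroblast identity was present in all 4 libraries, with lower summed levels in KO-labelled cells. The 24 fibroblast markers summed to 24819 and 24153 CPM in WT libraries, and to 14498 and 14474 CPM in KO-labelled libraries. Most of the difference between these sums lay in the type I collagen genes Col1a1 and Col1a2, with values given below. Of the 24 markers, 9 were higher (37.5%) and 13 lower (54.2%), against 34.5% and 39.8% of all genes tested. With the 6 members on chromosomes 1 or 7 left out, 5 were higher. Vim, the intermediate filament gene of mesenchymal cells, stood at 4400 and 4395 CPM in WT against 3635 and 3607 CPM in KO-labelled libraries. The macrophage and blood list summed to 21.1 and 21.4 CPM in WT against 22.9 and 23.3 CPM in KO-labelled libraries. Of the 31 members found, 12 had 0 counts in all 4 libraries, Ptprc, Emr1 and Hbb-b1 among them. Cd68, of the same list, was present with a mean of at least 1 CPM in a fed group and passed the threshold. Endothelial markers summed to 9.15 and 7.59 against 17.03 and 16.6 CPM, epithelial markers to 33.6 and 33.5 against 14.3 and 13 CPM, skeletal muscle markers to 9.36 and 9.07 against 28.2 and 27.5 CPM with Myod1, Myog and Ckm at 0, and adipocyte markers to 63.5 and 58.4 against 123 and 125 CPM with Plin1 at 0. Neural and glial markers summed to 1253 and 1310 against 292 and 287 CPM, with Sox10 at 0. Members of a list did not all follow its sum. Of 14 tested skeletal muscle markers 6 were higher and 4 lower, all by over 2-fold, and of 13 epithelial markers 3 were higher and 4 lower. Of 9 adipocyte markers 5 were higher and 2 lower, and Fabp4, with values below, made up most of the difference between the sums. For the endothelial list it was 4 and 0 of 8, and for the macrophage and blood list 2 and 2 of 8. In bulk RNA fewer cells of one type and less RNA per cell cannot be told apart.

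The genotypes differed at most genes. Of 14418 genes tested, 10722 (74.4%) passed the threshold, 4980 of them higher in KO-labelled cells (34.5%) and 5742 lower (39.8%). By over 2-fold, 1796 were higher (12.5%) and 1621 lower (11.2%). The balance of higher and lower genes turned with the setting: 5811 were higher and 4737 lower with library totals, and 5521 higher and 5383 lower when the 4 fed libraries were fitted alone. The shares given first are the background for every gene list: a list with shares close to these resembles all genes tested. The median gene differed by -0.062 on the log2 scale and by 0.05 when libraries were scaled by their totals only, so small differences depend on the scaling and list medians near 0 are not read as a direction. Among the genes given below as past no threshold, Ctsb, Kdm3b, Ptch1 and Sdha passed as higher with size factors by relative log expression, with library totals, with a minimum of 5 CPM in 2 libraries and with the 4 fed libraries alone. Ctsb, Kdm3b and Sdha also passed with DESeq2. Atg14, Dnmt1, E2f1, Itgb1, Nfkbia and Per2 passed as higher with library totals, and Ifnar1 passed as lower without X and Y genes. Dnmt1 and E2f1 were also higher with the 4 fed libraries alone, and Dnmt1 with the minimum of 5 CPM. Without genes of chromosomes 1 and 7, Atg14, Ctsb, Dnmt1, E2f1, Itgb1, Kdm3b, Ptch1 and Sdha passed as higher. The gene lists were compiled with earlier results of these data known.

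**Figure D1:**
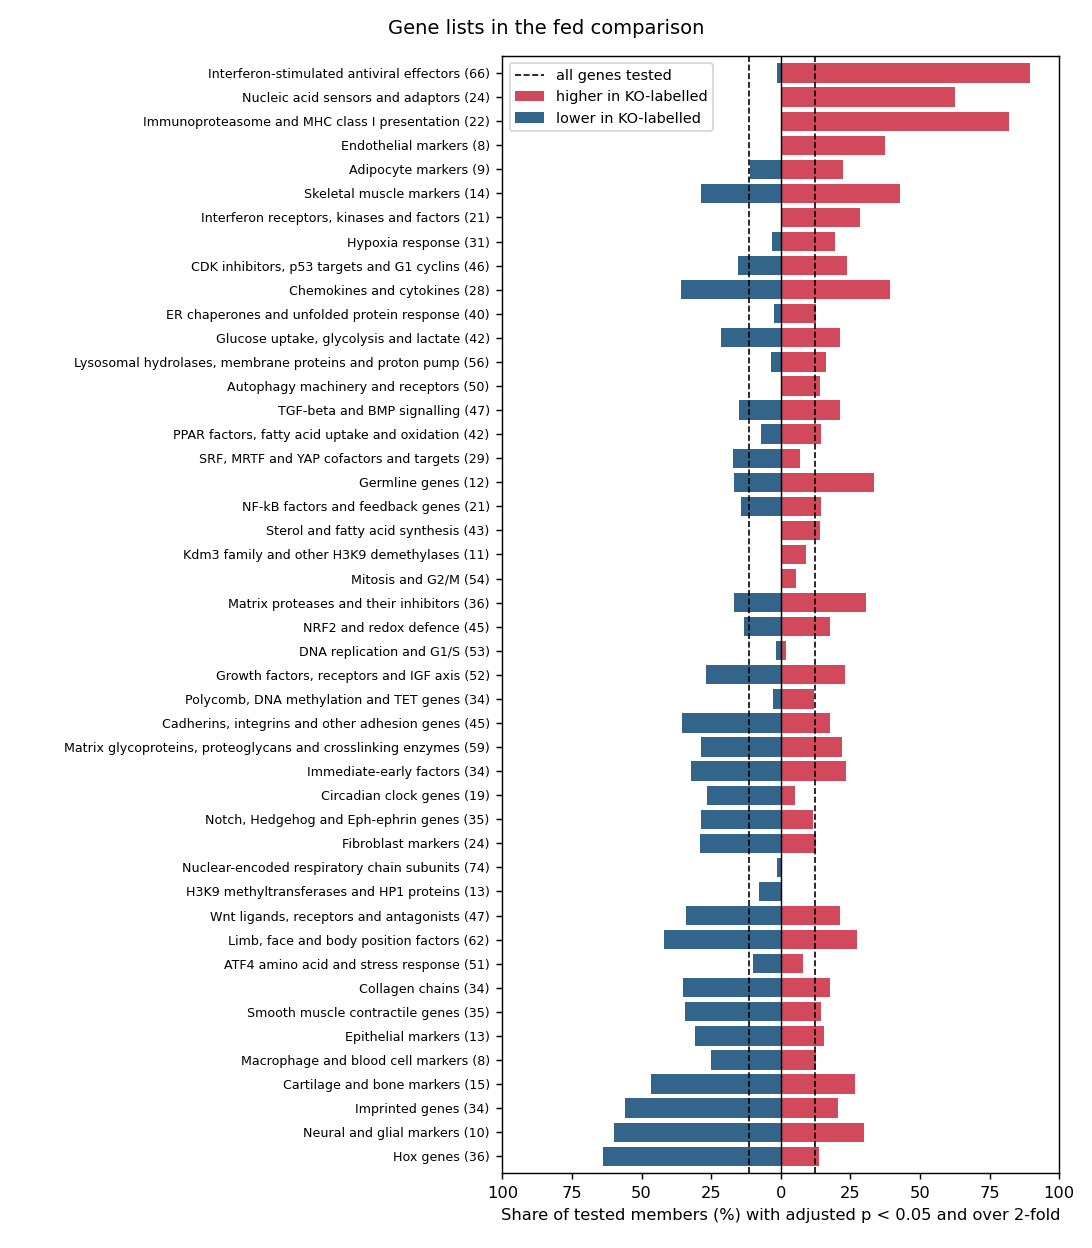
Share of the tested members of each gene list that differed by over 2-fold with an adjusted p under 0.05, higher in KO-labelled cells to the right and lower to the left, sorted by the list's median log2 fold change, with the number of tested members in parentheses. Dashed lines mark the shares over all genes tested, 12.5% higher and 11.2% lower. The antiviral effectors and class I presentation genes lie far to the right and the Hox and imprinted genes to the left.

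Fold changes also depended on the chromosome. The median log2 fold change was 0.65 over the 805 tested genes of chromosome 1 and 0.58 over the 1073 of chromosome 7, while chromosome 8 stood at -0.51, chromosome X at -0.38, chromosome 6 at -0.36 and the others between -0.30 and 0.15. On chromosome 1, 26.6% of the genes were higher by over 2-fold, on chromosome 7 21.1%, against 12.5% of all genes. The shift ran along the whole chromosome: in 5 blocks of consecutive genes the medians ran from 0.54 to 0.74 on chromosome 1, from 0.53 to 0.61 on chromosome 7 and from -0.60 to -0.43 on chromosome 8. The starved libraries gave 0.63, 0.72 and -0.44 for the same 3 chromosomes. Chromosomes 1 and 7 together held 440 (24.5%) of the genes higher by over 2-fold and 13.03% of the genes tested. DNA copy number was not measured, and its part in these shifts was not tested. The number of members on chromosomes 1 or 7 is given below for the lists whose counts or median moved most without them. Of the genes described below, Aim2, Atf3, Atf6, Btg2, Cd34, Col3a1, Des, Epha4, Fn1, Ifi203, Igfbp2, Kdm5b, Ndufs1, Per2, Ptgs2, Ptpn14, Serpine2 and Sp100 lie on chromosome 1. Adm, Arntl, Arrdc4, Bnip3, Ccnd1, Cdkn1c, Ctsd, H19, Ifitm1, Igf2, Irf7, Ldha, Mki67, Peg3 and Tgfb1 lie on chromosome 7. Bst2, Calr, Cdh11, Col4a1, Cox4i1, Gdf15, Hand2, Herpud1, Itgb1, Lamp1, Map1lc3b, Mmp2, Nlrc5, Nqo1, Sall1, Sfrp1, Tlr3 and Tubb3 lie on chromosome 8.

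**Figure D2:**
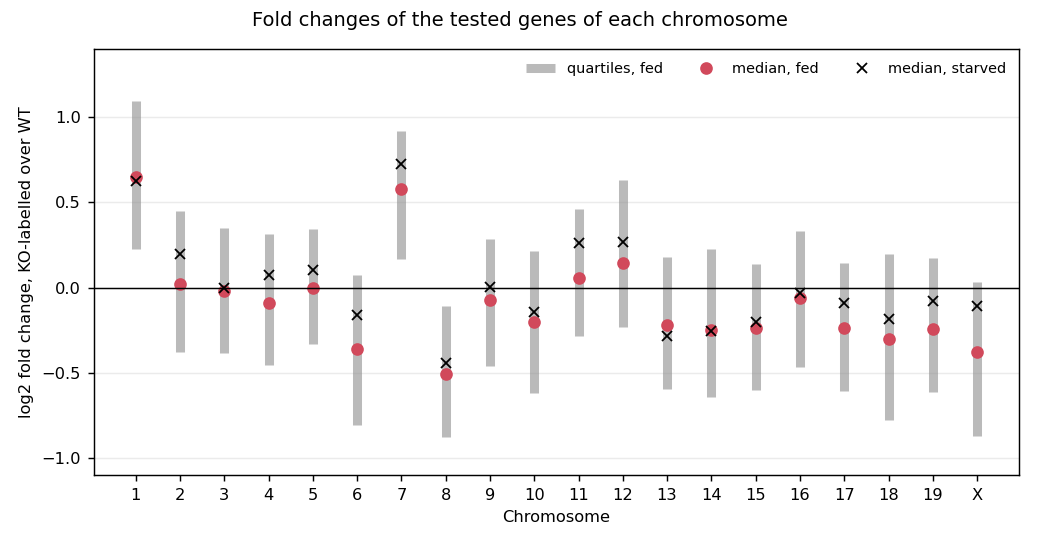
Log2 fold change of KO-labelled over WT cells for the tested genes of each chromosome: fed median (circles) with the lower and upper quartiles (bars), and the median in the starved libraries (crosses). Chromosomes 1 and 7 lie above 0 with medians of 0.65 and 0.58, and chromosome 8 below at -0.51, in fed and in starved libraries alike.

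The antiviral effectors of the interferon pathway had the highest share of genes higher by over 2-fold of all lists with at least 5 tested members. Of 66 tested antiviral effectors, 63 were higher in KO-labelled cells and 59 by over 2-fold (background 12.5%), with a median log2 fold change of 5.37. Reference sequences of 6 promoters are printed first, since effector genes carry a known regulatory element, the interferon-stimulated response element, to which a complex that holds STAT2 and IRF9 binds. The core searched was GAAANNGAAA on either strand, in the 250 bases before each start site (RefSeq, GRCm38.p6, not the build of the counts). Among named effectors with an entry, Cmpk2, Oas1a, Sp100 and Isg15 had the largest fold changes. Ifit1 and Bst2 were added after their matches were seen. Capitals mark the core on the strand printed, which is the strand of the gene, read 5′ to 3′. For Ifit1 the capitals are the core's reverse complement.
Oas1a: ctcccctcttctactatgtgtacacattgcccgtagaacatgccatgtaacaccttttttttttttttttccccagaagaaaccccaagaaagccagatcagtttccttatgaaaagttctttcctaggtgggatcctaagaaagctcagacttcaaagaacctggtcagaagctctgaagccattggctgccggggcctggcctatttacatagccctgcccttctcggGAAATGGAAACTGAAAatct
Isg15: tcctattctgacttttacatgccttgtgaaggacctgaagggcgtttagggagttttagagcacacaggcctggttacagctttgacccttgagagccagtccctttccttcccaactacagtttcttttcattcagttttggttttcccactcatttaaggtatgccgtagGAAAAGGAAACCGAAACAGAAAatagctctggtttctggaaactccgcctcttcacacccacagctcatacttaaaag
Ifit1: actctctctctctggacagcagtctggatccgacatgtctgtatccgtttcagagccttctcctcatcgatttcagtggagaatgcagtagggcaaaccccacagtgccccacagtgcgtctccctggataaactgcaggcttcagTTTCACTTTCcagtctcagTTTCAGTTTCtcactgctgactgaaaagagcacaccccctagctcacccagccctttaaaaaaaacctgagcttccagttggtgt
Bst2: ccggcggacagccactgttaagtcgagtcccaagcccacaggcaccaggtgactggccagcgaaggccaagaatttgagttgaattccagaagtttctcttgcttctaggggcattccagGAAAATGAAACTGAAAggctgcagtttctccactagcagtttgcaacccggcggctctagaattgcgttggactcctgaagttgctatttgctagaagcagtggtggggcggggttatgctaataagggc
Cmpk2: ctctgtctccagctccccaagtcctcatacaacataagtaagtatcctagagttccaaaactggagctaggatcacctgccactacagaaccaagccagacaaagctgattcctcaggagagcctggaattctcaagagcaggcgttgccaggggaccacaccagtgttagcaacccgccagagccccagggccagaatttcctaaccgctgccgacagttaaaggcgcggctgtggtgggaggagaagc
Sp100: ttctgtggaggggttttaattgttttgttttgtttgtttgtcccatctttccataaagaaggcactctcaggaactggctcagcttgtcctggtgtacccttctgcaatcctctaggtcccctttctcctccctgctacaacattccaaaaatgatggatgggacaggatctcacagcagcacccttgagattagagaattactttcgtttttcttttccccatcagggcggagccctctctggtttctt

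The Oas1a window lies at chr5:120907526-120907775 on the minus strand, that of Isg15 at chr4:156200819-156201068 (minus), that of Ifit1 at chr19:34640639-34640888 (plus), that of Bst2 at chr8:71537473-71537722 (minus), that of Cmpk2 at chr12:26468965-26469214 (plus) and that of Sp100 at chr1:85649738-85649987 (plus), each directly upstream of the annotated start. In Oas1a the matches began 20 and 14 bases before the start, and in Isg15 78, 72 and 66 bases before it, so that consecutive matches overlap. Ifit1 had matches at 104 and 85 bases and Bst2 at 130 and 124. The Cmpk2 and Sp100 windows had no match, which says only that these letters are not in them. The core was present in 22 of 53 effector promoters in the table (41.5%), against 3.04% of all 27025 promoters and 2.57% of those of tested genes. For the class I presentation genes it was 3 of 18 (16.7%). The STAT dimer core TTCNNNGAA, searched on both strands, was present in 18.9% of the effector promoters and 7.18% of all. A match is a description of the sequence and not evidence of binding.

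Upstream in the pathway, the sensors of RNA and DNA were mostly higher. Of 24 tested sensors and adaptors, 18 were higher, 15 of them by over 2-fold, and 2 were lower. Ddx58, the cytosolic RNA sensor RIG-I, stood at 16.6 and 17.01 CPM in WT against 152 and 157 CPM in KO-labelled libraries (3.20 ± 0.051). Ifih1, the long double-stranded RNA sensor MDA5, stood at 5.28 and 4.74 CPM in WT against 72.2 and 73.6 CPM in KO-labelled libraries (3.86 ± 0.095), and Tlr3, the endosomal RNA receptor, at 3.1 and 3.64 CPM in WT against 26.04 and 22.5 CPM in KO-labelled libraries. All values of these 3 genes in KO-labelled libraries exceeded both WT values several times over. Zbp1, a sensor of Z-form nucleic acid, was at 0.0463 and 0.12 CPM in WT against 14.8 and 14.1 CPM in KO-labelled libraries, and Nlrc5, the transactivator of class I genes, at 0.232 and 0.479 CPM in WT against 34.6 and 33.7 CPM in KO-labelled libraries. Aim2, the inflammasome DNA sensor, had 0 counts in both WT libraries and 2.32 and 2.05 CPM in KO-labelled ones, at least 30.9-fold higher. Ifi203, an interferon-inducible gene of the same family with near-identical neighbours that may share its reads, differed by 6.52 ± 0.14. In all, 5 of the sensors lie on chromosomes 1 or 7, Aim2 and Ifi203 among them. Tmem173, the adaptor STING, was higher (20.6 and 20.7 CPM in WT against 72.8 and 79.6 CPM in KO-labelled libraries), whereas its upstream enzyme cGAS (Mb21d1) stood at 17.7 and 14.6 CPM in WT against 18.6 and 15.2 CPM in KO-labelled libraries (adjusted p = 0.538).

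Interferon transcripts themselves were near the limit of detection. Of 17 interferon genes in the table, 16 were too low to test. Ifnb1, the fibroblast interferon gene, had 0 counts in both WT libraries and 6 and 2 in the KO-labelled ones. Ifnz was the 1 gene tested, at 0.648 and 0.407 CPM in WT against 1.18 and 1.11 CPM in KO-labelled libraries (1.12 ± 0.48, adjusted p = 0.0438). This call was lost with DESeq2 and when any fed library was left out, and interferon genes of this cluster resemble each other enough to share reads. The low levels do not show whether interferon protein was made.

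The receptor chains differed little, and several transcription factors downstream by far more. Ifnar1 stood at 80.3 and 78.4 CPM in WT against 76.7 and 73.2 CPM in KO-labelled libraries (adjusted p = 0.0775) and Ifnar2 at 39.95 and 42.3 CPM in WT against 43.9 and 46.1 CPM in KO-labelled libraries (0.13 ± 0.05). The Ifnar2 call was lost without WT replicate 1 (adjusted p = 0.242) and without KO-labelled replicate 2 (0.205). Of 21 receptors, kinases and factors, 15 were higher, 6 by over 2-fold, and 2 lower. Stat2 and Irf9, which act together on the promoters of antiviral genes, differed by 3.42 ± 0.051 and 2.57 ± 0.06. Irf7, the factor that amplifies interferon transcription, stood at 0.625 and 0.526 CPM in WT against 134 and 133 CPM in KO-labelled libraries (7.85 ± 0.095). Irf1 differed by 0.18 ± 0.065, a call that was lost without WT replicate 1 or either KO-labelled replicate (adjusted p = 0.0666 to 0.197). Usp18, the ISG15 protease that dampens receptor signalling, stood at 0.185 and 0.239 CPM in WT against 119 and 123 CPM in KO-labelled libraries (9.14 ± 0.11).

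Among the effectors, Oas1a and Oas2 make the messenger that activates RNase L. Oas1a stood at 0.0926 and 0.0239 CPM in WT against 121 and 118 CPM in KO-labelled libraries, a ratio of 2025-fold (95% Clopper-Pearson interval 868 to 6239), and Oas2 at 0.0695 and 0 CPM in WT against 55.4 and 58.1 CPM in KO-labelled libraries. Oas1a and its near-identical copy Oas1g (0.0232 and 0.0718 CPM in WT against 55.7 and 47.97 CPM in KO-labelled libraries) may share reads and are uncertain as single genes. Cmpk2, a mitochondrial nucleotide kinase, had 0 counts in WT and 18.7 and 21.3 CPM in KO-labelled libraries, at least 283-fold higher. Isg15, the ubiquitin-like modifier, stood at 0.556 and 0.838 CPM in WT against 198 and 201 CPM in KO-labelled libraries (8.16 ± 0.086, adjusted p = 2.77e-25), and Bst2, the tetherin that retains budding virus, at 5.4 and 5.38 CPM in WT against 389 and 375 CPM in KO-labelled libraries (6.15 ± 0.05). Ifit1, which binds viral RNA caps, differed by 6.12 ± 0.11, and Sp100, a nuclear body protein, stood at 0.0463 and 0 CPM in WT against 30.8 and 33.8 CPM in KO-labelled libraries. Mx1, the dynamin-like GTPase, had 4 and 0 counts in WT and 158 and 137 counts in KO-labelled libraries, a ratio of 55.9-fold (95% Clopper-Pearson interval 21.6 to 207). One effector was lower: Ifitm1, named after its values were seen, at 15.8 and 15.2 CPM in WT against 1.28 and 1.69 CPM in KO-labelled libraries (-3.39 ± 0.24). Of the 66 tested effectors, 10 lie on chromosomes 1 or 7. In the starved libraries the effectors' median was 4.56. The difference between fed and starved genotype effects passed the threshold for 40 of 66, beside 64.5% of all genes tested (9299 of 14418).

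**Figure D3:**
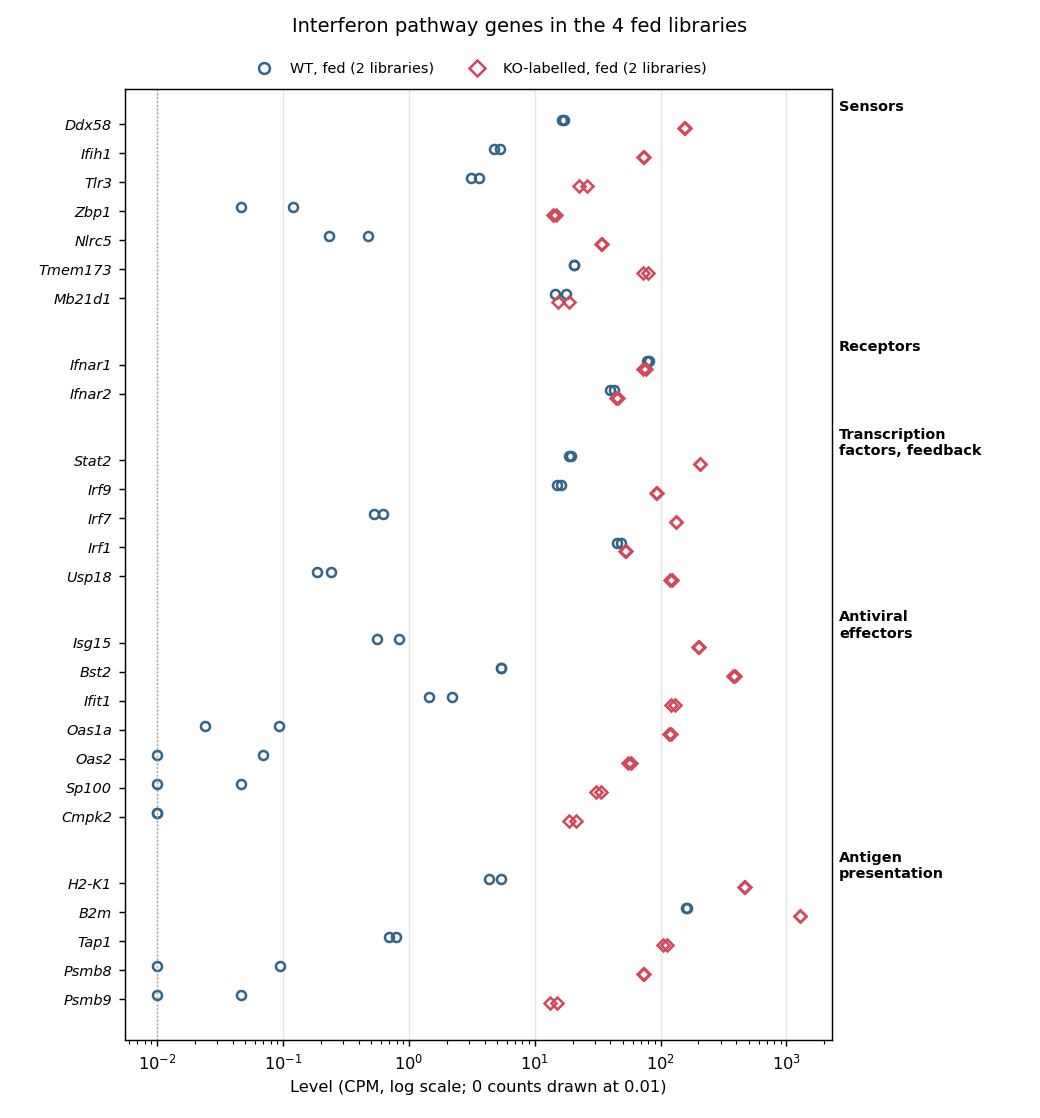
Levels (CPM, log axis) of interferon pathway genes in the 2 WT (circles) and 2 KO-labelled (diamonds) fed libraries, ordered by role; 0 counts are drawn at 0.01 CPM. Ifnar1, Ifnar2, Irf1 and Mb21d1 lie close together in both genotypes, and the other genes lie to the right in KO-labelled cells, Oas1a from 0.0926 and 0.0239 to 121 and 118 CPM.

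Genes of class I antigen presentation were nearly all higher in KO-labelled cells. Peptides made by the immunoproteasome are carried by the TAP transporter to class I molecules, which reach the surface with beta-2 microglobulin. Of 22 genes, 21 were higher, 18 by over 2-fold, and none of them lies on chromosome 1 or 7. The immunoproteasome subunits Psmb8 and Psmb9 stood at 0 and 0.0957 CPM in WT against 72.6 and 74.1 CPM in KO-labelled libraries and at 0.0463 and 0 CPM in WT against 15.1 and 13.1 CPM in KO-labelled libraries, ratios of 1557-fold (95% Clopper-Pearson interval 608 to 5716) and 604-fold (95% Clopper-Pearson interval 167 to 4993). Tap1 differed by 7.19 ± 0.10 and B2m by 2.985 ± 0.03, the latter at 159 and 164 CPM in WT against 1278 and 1274 CPM in KO-labelled libraries. The class I heavy chain gene H2-K1 stood at 5.42 and 4.36 CPM in WT against 457 and 473 CPM in KO-labelled libraries (6.57 ± 0.055). H2-Q7 (0.0232 and 0.0957 CPM in WT against 18.2 and 17.04 CPM in KO-labelled libraries) has close copies, and reads may be split between the H2 genes. The 1 lower member was Calr, a chaperone of class I folding, at -0.13 ± 0.022, which was named after its values were seen and passed no threshold under library totals.

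Chemokines and cytokines split evenly. Of 28 tested genes 12 were higher and 12 lower, 11 and 10 by over 2-fold. Cxcl10 and Ccl5, T cell attractants induced by interferon, were higher at 2.305 ± 0.13 and 1.74 ± 0.08. Il6, the acute-phase cytokine gene, stood at 0.556 and 0.526 CPM in WT against 14.6 and 17.1 CPM in KO-labelled libraries (4.865 ± 0.20). Cxcl12, the stromal chemokine that retains stem and progenitor cells, ran the other way: it stood at 1738 and 1720 CPM in WT against 117 and 114 CPM in KO-labelled libraries (-3.90 ± 0.032, adjusted p = 3.73e-27). Il33, the alarmin cytokine gene, was lower at 24.4 and 24.3 CPM in WT against 0.486 and 0.239 CPM in KO-labelled libraries, and Cxcl14 had 0 counts in KO-labelled libraries, at least 36.01-fold lower. Ccl2, a monocyte attractant, differed by 0.71 ± 0.034, and Cxcl16 by 4.30 ± 0.24. The NF-kB factors differed little: Nfkb1 differed by -0.18 ± 0.039, Rela by 0.09 ± 0.036 and their inhibitor Nfkbia by -0.01 ± 0.041 (adjusted p = 0.835). The Rela call was lost when any one fed library was left out (adjusted p = 0.0517 to 0.17) and the Nfkb1 call under library totals (0.161). Of 21 genes in that list 11 were higher and 8 lower, 3 and 3 by over 2-fold. Ptgs2, the inducible cyclooxygenase, was among the higher ones (32.5 and 32.4 CPM in WT against 149 and 149 CPM in KO-labelled libraries), and Vcam1, an adhesion receptor for leukocytes, among the lower ones (97.1 and 101 CPM in WT against 30.4 and 31.2 CPM in KO-labelled libraries). Ptgs2 lies on chromosome 1, as given for the whole chromosome above.

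Genes of the smooth muscle contractile apparatus, which fibroblasts express when they become myofibroblasts, were lower more often than higher. Of 35 tested members 20 were lower and 11 higher, 12 and 5 by over 2-fold. Acta2, the alpha smooth muscle actin, stood at 2199 and 2192 CPM in WT against 78.4 and 78.3 CPM in KO-labelled libraries (-4.81 ± 0.028, adjusted p = 5.39e-29). Tagln, an actin-bundling protein, stood at 574 and 575 CPM in WT against 40.7 and 41.5 CPM in KO-labelled libraries (-3.805 ± 0.03), and Myl9, the regulatory myosin light chain, at 245 and 241 CPM in WT against 13.1 and 15.1 CPM in KO-labelled libraries (-4.12 ± 0.049). For each of these genes both KO-labelled values were far below both WT values. Cnn1, calponin, stood at 106 and 98.6 CPM in WT against 1.65 and 1.43 CPM in KO-labelled libraries (-6.04 ± 0.074), and Actg2, the enteric actin, at 70.4 and 73.95 CPM in WT against 0.778 and 0.676 CPM in KO-labelled libraries (-6.62 ± 0.086). Synpo2 and Aoc3 differed by -6.43 ± 0.42 and -4.89 ± 0.22. Myh11, the smooth muscle myosin heavy chain, had few counts in either genotype (0.394 and 0.335 CPM in WT against 0 and 0.0398 CPM in KO-labelled libraries). Des, the muscle intermediate filament gene, was among the higher members, at 0.232 and 0.12 CPM in WT against 1.54 and 1.53 CPM in KO-labelled libraries (3.10 ± 0.46). In the starved libraries Acta2, Tagln and Myl9 differed by -2.43, -2.79 and -0.80, and for each the fed and starved differences were unequal (adjusted p = 1.8e-21, 4.58e-15 and 9.06e-20).

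The regulators of these genes did not move as one. Srf, the serum response factor that binds their promoters, stood at 97.3 and 102 CPM in WT against 65.5 and 62.8 CPM in KO-labelled libraries (-0.63 ± 0.044), and its cofactor Mkl1 differed by -0.18 ± 0.037, which did not pass under library totals (adjusted p = 0.145). Yap1, the Hippo pathway coactivator, was slightly higher (0.29 ± 0.034). Its targets split: Ctgf and Cyr61, secreted matricellular proteins, were higher at 0.51 ± 0.034 and 0.56 ± 0.028, while Ankrd1, a cardiac ankyrin repeat protein, stood at 131 and 125 CPM in WT against 4.05 and 3.94 CPM in KO-labelled libraries and F3, tissue factor, differed by -1.35 ± 0.054. Ptpn14 and Tead4 were higher by 1.305 ± 0.042 and 1.25 ± 0.086. Of 29 tested genes of this list 15 were higher and 9 lower.

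TGF-beta and BMP genes were called in both directions, 23 of 47 higher and 16 lower. The ligand gene Tgfb1, on chromosome 7, differed by 0.96 ± 0.058, and the receptors Tgfbr1 and Tgfbr2 by 0.23 ± 0.066 and -0.24 ± 0.04, the former not past the threshold without WT replicate 2 (adjusted p = 0.0925). The feedback inhibitor Smad7 was higher (0.59 ± 0.063), whereas Tgfbi, a matrix protein named for its induction by this ligand, stood at 102 and 98.3 CPM in WT against 15.3 and 15.5 CPM in KO-labelled libraries (-2.70 ± 0.063). Inhba, the activin subunit gene, was lower (22.7 and 21.4 CPM in WT against 2.72 and 2.62 CPM in KO-labelled libraries). Bmp2 had 0 counts in WT and 1.56 and 1.31 CPM in KO-labelled libraries, and the BMP antagonist Nog stood at 0.0463 and 0.239 CPM in WT against 2.35 and 2.39 CPM in KO-labelled libraries. The targets of this pathway therefore did not share a direction.

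Collagens changed chain by chain. Of 34 tested chains 19 were lower and 13 higher, 12 and 6 by over 2-fold. Their median of -0.48 was -0.89 without the 6 chains on chromosomes 1 or 7. Type I collagen is a trimer of Col1a1 and Col1a2 chains. Col1a2 stood at 6200 and 6020 CPM in WT against 268 and 261 CPM in KO-labelled libraries (-4.53 ± 0.034, adjusted p = 1.08e-27), and Col1a1 at 4752 and 4572 CPM in WT against 1713 and 1678 CPM in KO-labelled libraries (-1.46 ± 0.028). The partner chains thus fell by unequal amounts. Col3a1, the fibrillar partner of type I on chromosome 1, was higher (0.55 ± 0.031), and so was Col4a1 of basement membrane (0.98 ± 0.034). Col6a1 of the microfibrils was lower (-0.99 ± 0.029). The cartilage collagens went apart: Col2a1 stood at 253 and 244 CPM in WT against 0.713 and 0.477 CPM in KO-labelled libraries (-8.67 ± 0.081) and Col10a1, the hypertrophic cartilage collagen, at 22.6 and 24.8 CPM in WT against 610.0 and 609.6 CPM in KO-labelled libraries (4.69 ± 0.039). Sox9, the cartilage factor that drives Col2a1, stood at 55.3 and 52.7 CPM in WT against 11.04 and 11.4 CPM in KO-labelled libraries (-2.27 ± 0.07), and Sox5, its partner, was higher (2.75 ± 0.14). Of 15 tested genes of the cartilage and bone list 9 were lower and 4 higher, with a median of -0.88 (-0.33 without chromosomes 1 and 7). The list summed to 931 and 928 CPM in WT against 1131 and 1140 CPM in KO-labelled libraries, and Col10a1, with the values above, made up most of the latter sum.

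Other matrix genes were divided equally, 25 of 59 higher and 25 lower, with 13 and 17 by over 2-fold. Fn1, fibronectin, differed by only 0.18 ± 0.038. Postn, periostin, stood at 426 and 438 CPM in WT against 6.71 and 6.44 CPM in KO-labelled libraries (-6.035 ± 0.045), Efemp1, a fibulin, at 138 and 135 CPM in WT against 1.8 and 1.87 CPM in KO-labelled libraries (-6.22 ± 0.069), and Mfap2, an elastic microfibril protein, at 14.1 and 13.6 CPM in WT against 0.0972 and 0 CPM in KO-labelled libraries. In both KO-labelled libraries these 3 genes were far below their WT levels. The small proteoglycans, which bind collagen fibrils, ran the other way: Dcn, decorin, stood at 2.57 and 2.25 CPM in WT against 52.2 and 50.6 CPM in KO-labelled libraries (4.41 ± 0.098) and Lum, lumican, at 0.0463 and 0 CPM in WT against 1.73 and 2.92 CPM in KO-labelled libraries. Lox, the collagen crosslinking oxidase, was lower by a small amount (-0.32 ± 0.027). Thbs4, a thrombospondin, had 0 counts in WT and 1.02 and 1.23 CPM in KO-labelled libraries.

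Among the proteases, 15 of 36 genes were higher and 13 lower. The stromelysin Mmp3 stood at 1.85 and 1.05 CPM in WT against 265 and 268 CPM in KO-labelled libraries (7.51 ± 0.11) and the collagenase Mmp13 at 0.764 and 0.335 CPM in WT against 44.97 and 46.7 CPM in KO-labelled libraries (6.365 ± 0.13). The gelatinase Mmp2 ran against them, at 485 and 487 CPM in WT against 139 and 144 CPM in KO-labelled libraries (-1.78 ± 0.036). The inhibitor Timp3 was lower (-1.50 ± 0.033), and the protease inhibitor Serpine2 on chromosome 1 was higher (14.4 and 13.9 CPM in WT against 199 and 204 CPM in KO-labelled libraries). Adamts9, an aggrecan-cleaving protease, differed by 3.925 ± 0.23.

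**Figure D4:**
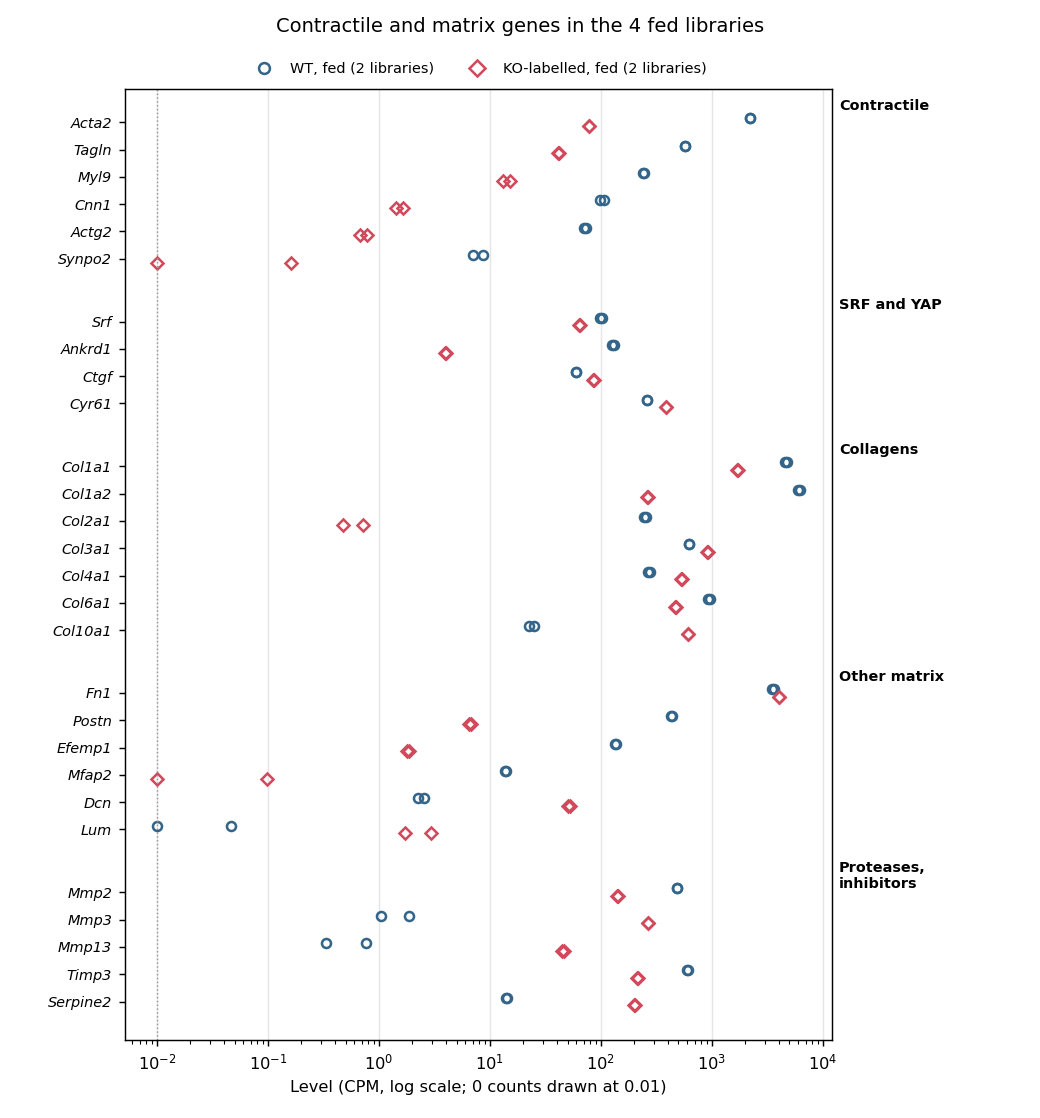
Levels (CPM, log axis) of contractile, SRF and YAP, collagen, other matrix and protease genes in the 2 WT (circles) and 2 KO-labelled (diamonds) fed libraries; 0 counts are drawn at 0.01 CPM. The contractile genes drawn were all lower and lie to the left in KO-labelled cells, while 11 of the 35 tested members of that list were higher. The collagen and matrix genes lie on both sides, Col2a1 far to the left and Col10a1 to the right.

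Hox genes, which encode body position along the head-to-tail and limb axes, differed by whole clusters. Of 36 tested, 24 were lower and 7 higher, 23 and 5 by over 2-fold, with a median of -3.33 and of -3.13 with genes of 0 counts at their bound. All 8 tested genes of the Hoxb cluster and all 9 of the Hoxc cluster were lower by over 2-fold. Hoxb9 stood at 75.5 and 78.4 CPM in WT against 0.0324 and 0.0994 CPM in KO-labelled libraries (-10.20 ± 0.16) and Hoxc10 at 72.5 and 72.6 CPM in WT against 0.13 and 0.0398 CPM in KO-labelled libraries (-9.62 ± 0.17). Hoxb6 and Hoxb3 stood at 21.03 and 22.6 CPM in WT against 0 and 0.0398 CPM in KO-labelled libraries and 17.6 and 16.9 CPM in WT against 0.0324 and 0 CPM in KO-labelled libraries. Hoxc6, Hoxc11, Hoxc8, Hoxb5 and Hoxb8 had 0 counts in both KO-labelled libraries and were at least 320.2-fold, at least 209.5-fold, at least 80.7-fold, at least 170.4-fold and at least 163-fold lower.

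The Hoxa and Hoxd clusters behaved otherwise. Of 11 tested Hoxa genes 3 were higher, 3 lower and 5 passed no threshold, and Hoxa5 stood at 6.04 and 5.07 CPM in WT against 2.46 and 2.82 CPM in KO-labelled libraries (-1.08 ± 0.19). In the Hoxd cluster the 4 genes at the low-numbered side, Hoxd9 among them (17.6 and 19.9 CPM in WT against 5.77 and 4.53 CPM in KO-labelled libraries), were lower, and the 4 at the other end were higher. These were Hoxd10, Hoxd11, Hoxd12 and Hoxd13, which act in the distal limb and the genital region and are named here after their values were seen. Hoxd10 stood at 16.2 and 16.1 CPM in WT against 36.9 and 36.1 CPM in KO-labelled libraries (1.18 ± 0.074) and Hoxd11 at 1.06 and 1.55 CPM in WT against 86.8 and 85.4 CPM in KO-labelled libraries (6.04 ± 0.10). Hoxd12 had 0 counts in WT and 4.36 and 3.54 CPM in KO-labelled libraries. Hoxd13 stood at 0.278 and 0.263 CPM in WT against 271 and 271 CPM in KO-labelled libraries (9.955 ± 0.11, adjusted p = 3.82e-25). Its paralog Hoxa13, also named afterwards, stood at 0.139 and 0.12 CPM in WT against 16.1 and 15.8 CPM in KO-labelled libraries (6.915 ± 0.23). The labels do not state which part of the embryo the cells came from. None of these clusters lies on chromosome 1 or 7. Genes inside a cluster overlap, and reads of opposite strands cannot be separated where the strand is not given.

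**Figure D5:**
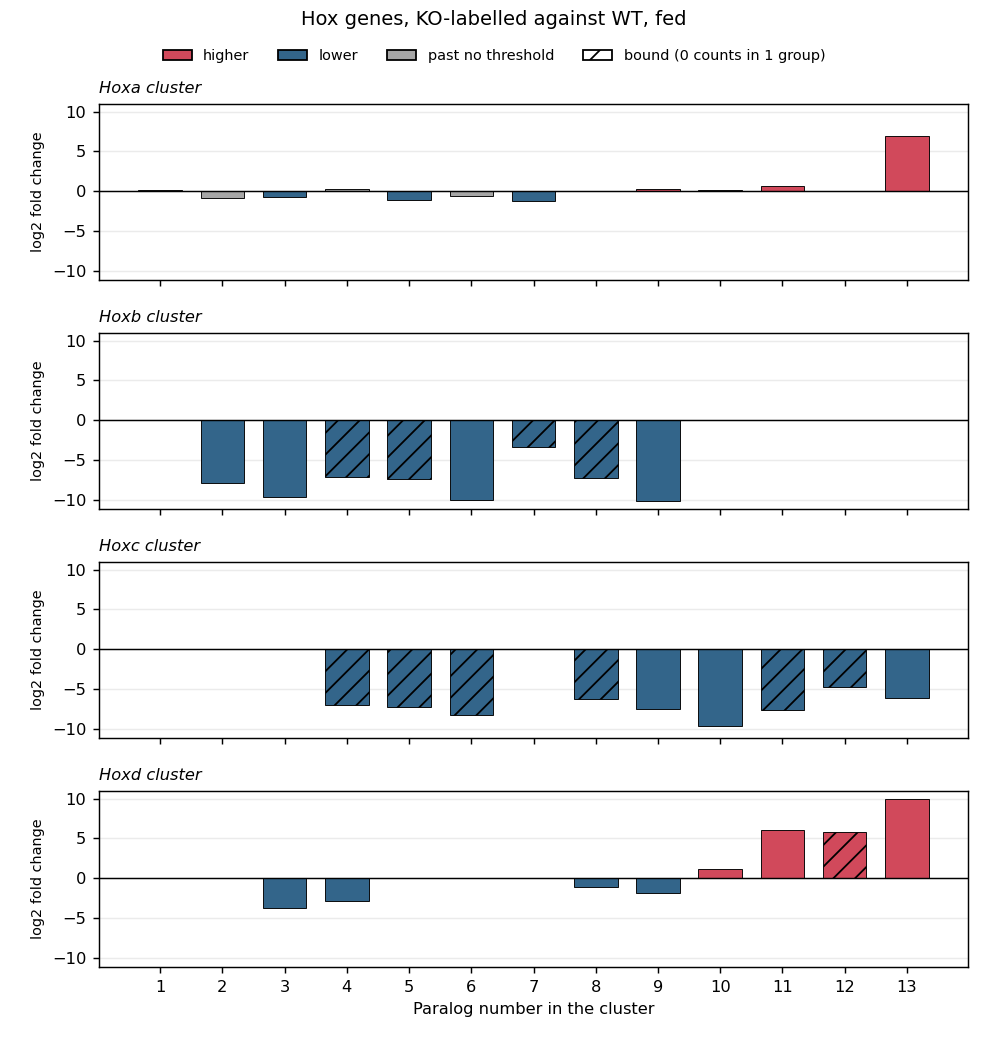
Log2 fold change of KO-labelled over WT for the tested genes of the 4 Hox clusters by paralog number; hatched bars are bounds for genes with 0 counts in 1 genotype, and grey bars passed no threshold. All Hoxb and Hoxc bars point down, and in the Hoxd cluster genes 10 to 13 point up.

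Some other position factors also differed by presence or absence. Of 62 tested limb, face and body position factors 32 were lower and 24 higher, 26 and 17 by over 2-fold. Of the 62, 7 had 0 counts in at least 1 fed group. Nkx3-2, a repressor in the skeletal lineage, had 0 counts in WT and 28.99 and 28.1 CPM in KO-labelled libraries, at least 404-fold higher. Gata4, a heart and foregut factor, and Sall1, a kidney and limb factor, were likewise at 0 in WT, and at 13.5 and 13.3 CPM and 12.1 and 10 CPM in KO-labelled libraries. Tbx5, the forelimb factor, had 0 counts in WT and 2.51 and 2.11 CPM in KO-labelled libraries. The hindlimb factors were expressed in both genotypes: Tbx4 stood at 17.2 and 21.8 CPM in WT against 49.4 and 50.4 CPM in KO-labelled libraries (1.35 ± 0.079) and Pitx1 at 182 and 177 CPM in WT against 28.4 and 25.9 CPM in KO-labelled libraries (-2.72 ± 0.062). Hand2, a limb bud factor, had 0 counts in KO-labelled libraries (3.57 and 3.23 CPM in WT). Twist1, a general mesenchymal factor, stood at 47.8 and 48.8 CPM in WT against 47.8 and 47.4 CPM in KO-labelled libraries (adjusted p = 0.751).

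Imprinted genes, expressed from one parental allele, were lower in most cases: 23 of 34 were lower, 19 by over 2-fold, and 10 higher. The median log2 fold change was -1.53. From the Dlk1 domain of chromosome 12, the RNA gene Meg3 stood at 14.2 and 14.5 CPM in WT and at 0 counts in KO-labelled libraries (at least 265-fold lower), Rian at 19.5 and 21.4 CPM in WT against 0 and 0.0795 CPM in KO-labelled libraries and Dlk1 at 10.2 and 11.7 CPM in WT against 0.292 and 0.159 CPM in KO-labelled libraries. The RNAs and the protein-coding gene of this domain, which are expressed from opposite parental alleles, were all lower. On chromosome 7, Igf2, the growth factor, stood at 13.6 and 12.6 CPM in WT against 0.0972 and 0.239 CPM in KO-labelled libraries (-6.32 ± 0.23) and H19, the RNA beside it, at 32.7 and 30.6 CPM in WT against 1.44 and 1.63 CPM in KO-labelled libraries (-4.37 ± 0.13). The growth inhibitor Cdkn1c differed by -2.08 ± 0.37 and Peg3, a zinc finger gene, by 2.33 ± 0.58, from low counts in WT. Slc38a4, an amino acid transporter, stood at 242 and 242 CPM in WT against 0.518 and 0.954 CPM in KO-labelled libraries (-8.40 ± 0.10), and Zrsr1 at 0 and 0.144 CPM in WT against 18.4 and 19.7 CPM in KO-labelled libraries. With 12 of the 34 genes on chromosomes 1 or 7, the count of higher genes was 5 without these chromosomes.

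Growth factor and IGF genes divided evenly, 21 of 52 higher and 23 lower. Pdgfra, a receptor of mesenchymal progenitors, was higher (29.4 and 31.9 CPM in WT against 97.1 and 97.8 CPM in KO-labelled libraries), while its relative Pdgfrb was lower (387 and 368 CPM in WT against 89.9 and 92.3 CPM in KO-labelled libraries). Hgf, the hepatocyte growth factor, was lower (-4.00 ± 0.23), and the IGF-binding proteins Igfbp6 and Igfbp2 stood at 79.5 and 78.8 CPM in WT against 0.762 and 1.13 CPM in KO-labelled libraries and at 6.18 and 6.49 CPM in WT against 0.13 and 0.278 CPM in KO-labelled libraries. Vegfa, the angiogenic ligand, was higher (0.67 ± 0.042). In the Wnt list 23 of 47 were lower and 14 higher. Sfrp2 and Sfrp1, secreted Wnt antagonists, stood at 878 and 863 CPM in WT against 14.9 and 14.9 CPM in KO-labelled libraries (-5.86 ± 0.039) and at 40 and 36.1 CPM in WT against 1.04 and 0.736 CPM in KO-labelled libraries (-5.40 ± 0.15). The ligand Wnt10b stood at 105 and 103 CPM in WT against 0.276 and 0.437 CPM in KO-labelled libraries, while Wnt5a differed by 1.575 ± 0.091 and the Wnt agonist Rspo3 stood at 0.973 and 1.12 CPM in WT against 65.5 and 65.5 CPM in KO-labelled libraries. Axin2, a feedback target of the canonical pathway, was lower (-2.59 ± 0.29).

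Notch, Hedgehog and Eph genes were lower in 15 (42.9%) and higher in 9 (25.7%) of 35 cases, beside 39.8% and 34.5% of all genes tested. By over 2-fold, 28.6% were lower and 11.4% higher, beside 11.2% and 12.5%. Epha7 and Epha4, guidance receptors, stood at 58.3 and 58.4 CPM in WT against 1.52 and 0.934 CPM in KO-labelled libraries and 9.52 and 9.84 CPM in WT against 0.0972 and 0.258 CPM in KO-labelled libraries. The Notch target Hey2 was lower (-3.88 ± 0.25) and Hes1 higher (0.89 ± 0.14). Ptch1, the Hedgehog receptor and target, stood at 43.9 and 42.8 CPM in WT against 48.03 and 45.7 CPM in KO-labelled libraries (adjusted p = 0.0843). Of 45 adhesion genes 19 were lower (42.2%) and 16 higher (35.6%), close to the shares of all genes tested. By over 2-fold, 16 were lower (35.6%) and 8 higher (17.8%), beside 11.2% and 12.5% of all genes. Thy1, a fibroblast surface glycoprotein, stood at 99.3 and 103 CPM in WT against 5.88 and 6.62 CPM in KO-labelled libraries (-4.02 ± 0.063), and Cd34, a sialomucin of stromal progenitors, at 186 and 181 CPM in WT against 6.86 and 6.06 CPM in KO-labelled libraries (-4.82 ± 0.06). Cdh11, the mesenchymal cadherin, and Itga11, a collagen receptor, were lower (-3.015 ± 0.052 and -4.77 ± 0.088). Pcdh17, a protocadherin, stood at 0.0926 and 0 CPM in WT against 88.6 and 82.9 CPM in KO-labelled libraries. Itgb1, the common integrin beta chain, did not differ past the threshold (-0.013 ± 0.024, adjusted p = 0.632).

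Autophagy, the process named in the study's title, differed in many genes by small amounts. Of 50 tested genes 25 were higher and 10 lower, against 34.5% and 39.8% of all genes, and 7 and 0 differed by over 2-fold. The initiation kinase gene Ulk1 and its partner Atg13 differed by 0.29 ± 0.048 and 0.68 ± 0.055. The lipid kinase subunit Becn1 differed by 0.26 ± 0.039, and Atg14 by 0.07 ± 0.062 (adjusted p = 0.315). Map1lc3b, the gene of the LC3 protein that coats autophagosomes, was lower (177 and 174 CPM in WT against 132 and 129 CPM in KO-labelled libraries), and the receptor Sqstm1 slightly higher (0.22 ± 0.025). The larger differences lay in the mitophagy receptors Bnip3, on chromosome 7 (22.2 and 21.8 CPM in WT against 129 and 130.4 CPM in KO-labelled libraries), and Optn (20.2 and 18.1 CPM in WT against 70.4 and 67.2 CPM in KO-labelled libraries), and in Mitf, a lysosomal gene regulator (3.75 and 2.25 CPM in WT against 17.4 and 16.1 CPM in KO-labelled libraries). Of 56 lysosomal genes 32 were higher and 16 lower, the latter count being 10 under library totals and 10 without chromosomes 1 and 7. The protease genes Ctsd, on chromosome 7, and Ctsh differed by 0.95 ± 0.025 and -3.78 ± 0.14, and Ctsb stood at 741 and 738 CPM in WT against 747 and 752 CPM in KO-labelled libraries (adjusted p = 0.482). Lamp1, a lysosomal membrane protein, was lower (-0.58 ± 0.028).

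The amino acid stress response controlled by ATF4 was lower in 31 of 51 genes (60.8%) and higher in 15 (29.4%). Over all genes tested 39.8% were lower and 34.5% higher. By over 2-fold, 5 members of the list were lower (9.8%) and 4 higher (7.8%), under the background of 11.2% and 12.5%. The count of higher members was 8 without chromosomes 1 and 7. Atf4 itself stood at 229 and 227 CPM in WT against 149.7 and 149.6 CPM in KO-labelled libraries (-0.61 ± 0.028), Ddit3 (CHOP) differed by -0.63 ± 0.043 and Asns, asparagine synthetase, by -0.44 ± 0.033. The proline synthesis genes Pycr1 and Aldh18a1 were lower by more (-1.61 ± 0.092 and -1.33 ± 0.033). Atf3, on chromosome 1, and Gdf15, a secreted stress factor, ran the other way, at 3.54 and 3.18 CPM in WT against 21.7 and 21.2 CPM in KO-labelled libraries and 0.301 and 0.191 CPM in WT against 2.58 and 2.56 CPM in KO-labelled libraries. Of 40 ER chaperone and unfolded protein genes 29 were higher (72.5%) and 9 lower (22.5%). By over 2-fold, 5 of them were higher and 1 lower, 12.5% and 2.5%, beside 12.5% and 11.2% of all genes tested. Hspa5, the chaperone BiP, differed by 0.39 ± 0.021 and Hsp90b1 by 0.12 ± 0.022, and the sensor Atf6, on chromosome 1, by 1.335 ± 0.041. Herpud1, an ER-associated degradation factor, was lower (-1.58 ± 0.036).

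Glycolytic genes were called in both directions, 24 of 42 higher and 17 lower. Their median of 0.25 was 0.061 without the 7 members on chromosomes 1 or 7. The lactate dehydrogenase genes separated: Ldha, on chromosome 7, stood at 615 and 619 CPM in WT against 1616 and 1625 CPM in KO-labelled libraries (1.39 ± 0.025) and Ldhb at 180.2 and 178 CPM in WT against 2.69 and 2.68 CPM in KO-labelled libraries (-6.06 ± 0.07). The glucose transporter Slc2a1 and the hexokinase Hk2 were higher (0.59 ± 0.035 and 0.69 ± 0.044). Pdk4, a kinase that holds back pyruvate oxidation, stood at 74.3 and 74.3 CPM in WT against 2.69 and 2.74 CPM in KO-labelled libraries (-4.77 ± 0.082), and Arrdc4, an arrestin relative that limits glucose uptake, at 0.811 and 0.574 CPM in WT against 32.7 and 31.9 CPM in KO-labelled libraries. Its relative Txnip differed by 0.32 ± 0.074. In the hypoxia list 20 of 31 were higher and 6 lower. Hif1a, the oxygen-regulated factor, differed by 0.44 ± 0.033, and Epas1, its relative, stood at 0.208 and 0.0479 CPM in WT against 2.66 and 3.6 CPM in KO-labelled libraries. Adm, the vasodilator peptide gene, was higher (1.33 ± 0.089), and Car9, a carbonic anhydrase and a standard hypoxia marker, stood at 1.69 and 1.39 CPM in WT against 1.1 and 1.29 CPM in KO-labelled libraries (adjusted p = 0.256).

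Respiratory chain subunits encoded in the nucleus were lower in 51 of 74 cases (68.9%) and higher in 13 (17.6%). Over all genes tested 39.8% were lower and 34.5% higher. By over 2-fold, 1 subunit was lower (1.4%) and 0 higher, under the background of 11.2% and 12.5%. The median was -0.26, beside -0.062 for all genes. The 1 gene lower by over 2-fold was Ndufa4 (221 and 232 CPM in WT against 101 and 101 CPM in KO-labelled libraries), a subunit associated with complex IV. Cox4i1 and Atp5b, of complex IV and the ATP synthase, differed by -0.89 ± 0.03 and -0.39 ± 0.023, and Sdha of complex II stood at 240.0 and 241 CPM in WT against 252 and 250.2 CPM in KO-labelled libraries (adjusted p = 0.0766). Ndufs1, on chromosome 1, was higher (0.87 ± 0.049). The count of higher subunits was 6 without chromosomes 1 and 7 and 8 without WT replicate 1. Sterol and fatty acid synthesis genes were higher in 22 and lower in 16 of 43, with 13 higher when WT replicate 2 was left out. Fabp4, a fatty acid carrier of adipocytes, stood at 11 and 10.8 CPM in WT against 60.3 and 59.8 CPM in KO-labelled libraries (2.46 ± 0.088), while Pparg, the adipocyte factor, did not pass (-0.095 ± 0.11, adjusted p = 0.454).

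Genes of cell division differed little in size. Of 53 replication genes 20 were higher and 22 lower, and 1 and 1 by over 2-fold, well under the background shares of 12.5% and 11.2%. Mcm2, a helicase subunit, differed by -0.18 ± 0.029 (adjusted p = 0.0592 under library totals), Pcna by 0.29 ± 0.031 and E2f1 by 0.053 ± 0.053 (adjusted p = 0.372). Rrm2, a ribonucleotide reductase subunit, stood apart at 145 and 152 CPM in WT against 428 and 425 CPM in KO-labelled libraries (1.52 ± 0.035). Of 54 mitotic genes 25 were higher and 19 lower. Mki67, a proliferation marker, differed by 0.36 ± 0.034 and Ccnb1, a mitotic cyclin, by -0.25 ± 0.035.

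Of 46 CDK inhibitors, p53 targets and G1 cyclins 25 were higher and 18 lower, 11 and 7 by over 2-fold. Cdkn1a (p21), an arrest gene controlled by p53, stood at 66.4 and 67.96 CPM in WT against 345 and 332 CPM in KO-labelled libraries (2.33 ± 0.035), and Cdkn2a, the locus of p16 and p19ARF that rises as fibroblasts age in culture, at 345 and 332 CPM in WT against 80.4 and 79.9 CPM in KO-labelled libraries (-2.08 ± 0.039). These inhibitors differed in opposite directions. Trp53 was higher (0.55 ± 0.032), as were its targets Mdm2 (1.30 ± 0.037) and Btg2, on chromosome 1 (2.515 ± 0.066). The G1 cyclin Ccnd2 stood at 494 and 481 CPM in WT against 82.4 and 80.7 CPM in KO-labelled libraries (-2.58 ± 0.037) and Ccnd1 differed by -0.67 ± 0.039. Of the NRF2 and redox list 20 of 45 were higher and 21 lower, with Nqo1, a quinone reductase, at 1.34 ± 0.066, Sod3, an extracellular superoxide dismutase, at 2.97 ± 0.046 and Gsta4, a glutathione transferase, at -4.69 ± 0.16. Immediate-early factors were 15 higher and 15 lower of 34, with Fos at 1.69 ± 0.19, Egr1 at -1.185 ± 0.065 and Myc at -0.62 ± 0.046. Of 19 clock genes 6 were higher and 9 lower. Arntl, the clock activator on chromosome 7, differed by 0.74 ± 0.089, and Per2 by 0.11 ± 0.096 (adjusted p = 0.292).

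Among chromatin genes, the relatives of Kdm3a differed little. Of 11 tested H3K9 demethylase genes 4 were higher, 3 lower and 4 passed no threshold. Jmjd1c and Kdm3b differed by 0.29 ± 0.043 and 0.073 ± 0.039 (adjusted p = 0.096 for Kdm3b), Kdm4a by -0.41 ± 0.039 and Kdm4b by 0.37 ± 0.056. Jhdm1d, the lysine demethylase also called KDM7A, was the 1 member over 2-fold, at 6.76 and 7.11 CPM in WT against 29.8 and 30.3 CPM in KO-labelled libraries (2.115 ± 0.081). Of 13 methyltransferase and HP1 genes 8 were lower and 3 higher: Ehmt2 (G9a) stood at 296 and 284 CPM in WT against 225 and 222 CPM in KO-labelled libraries (-0.37 ± 0.031), its partner Ehmt1 differed by -0.58 ± 0.046, Setdb1 by -0.48 ± 0.041 and the HP1 gene Cbx3 by -0.65 ± 0.036. Of the Polycomb, DNA methylation and TET list 14 of 34 were higher and 11 lower. Ezh2 and Dnmt1 did not pass (-0.0071 ± 0.049, adjusted p = 0.905, and 0.028 ± 0.034, adjusted p = 0.466). Dnmt3a, a de novo DNA methyltransferase, was higher (1.01 ± 0.055), Tet1, a DNA demethylation enzyme, lower (7.37 and 7.71 CPM in WT against 0.907 and 0.775 CPM in KO-labelled libraries), and Kdm5b, on chromosome 1, higher (1.72 ± 0.057).

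Germline genes, which are silent in normal fibroblasts, were mostly too low to test: 12 of 57 in the table could be tested, 5 were higher and 3 lower. The pluripotency factor Sox2 had 0 counts in WT and 1.13 and 1.19 CPM in KO-labelled libraries, and Nanog, which has processed copies elsewhere in the genome that may take its reads, stood at 2.71 and 1.79 CPM in WT against 0.081 and 0.0199 CPM in KO-labelled libraries.

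Over all autosomal genes with a mean of at least 10 CPM in a fed group, the largest differences included further genes with 0 or few counts in 1 genotype. Among the higher genes, Tfap2a, a neural crest and face factor, had 0 counts in WT and 14.4 and 12.8 CPM in KO-labelled libraries, and Lhx2, a limb bud and forebrain factor, stood at 0 and 0.0479 CPM in WT against 26.3 and 26.1 CPM in KO-labelled libraries. Among the lower genes, Mab21l2 and Ldb2 were at 43.8 and 38.05 CPM and 17.97 and 19.2 CPM in WT and at 0 counts in KO-labelled libraries, at least 756-fold and at least 343-fold lower. Mab21l1, the relative of the former, stood at 12.4 and 12.5 CPM in WT against 0.0324 and 0 CPM in KO-labelled libraries, and Tmem100, a membrane protein of the BMP response in vessels, at 11.1 and 11.4 CPM in WT and 0 in KO-labelled libraries. Stmn2, a microtubule regulator of neurons that is also on the neural list, stood at 369 and 377 CPM in WT against 0.6 and 0.577 CPM in KO-labelled libraries (-9.30 ± 0.07, adjusted p = 1.08e-27). With Nes (176 and 177 CPM in WT against 27.3 and 26.8 CPM in KO-labelled libraries), a filament of progenitors, Tubb3 (15.8 and 14.6 CPM in WT against 0.81 and 0.835 CPM in KO-labelled libraries) and Gap43 (12.6 and 12.04 CPM in WT against 0.47 and 0.557 CPM in KO-labelled libraries), it accounts for part of the neural marker sum given above, while Sox10 was at 0 counts in all 4 libraries. Of 10 tested members of the neural list 7 were lower (70%) and 3 higher (30%), against 39.8% and 34.5% of all genes. By over 2-fold, 6 were lower and 3 higher, Sox2 among the latter.

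Most of the larger differences were also present without glucose. The starved fold changes compare the 4 starved libraries, while the spread, the scaling and the gene filter were set over all 8 libraries. In the starved comparison 41.9% of genes were higher and 37.7% lower, 6035 against 5435, and with library totals alone 7817 against 3778. By over 2-fold, 21.8% of all genes tested were higher and 12.5% lower when starved, 34.3% in either direction. Of the 3417 genes over 2-fold in fed cells (23.7% of those tested), 2109 were over 2-fold in the same direction in starved cells, 61.7% of the fed list and 42.6% of the starved list, and 161 were over 2-fold in the opposite direction. The difference of the genotype differences passed the threshold for 1742 of the 3417, against 64.5% of all genes. Stmn2, Col2a1 and Postn were also lower in starved cells (-8.97, -9.005 and -6.11 on the log2 scale, difference adjusted p = 0.315, 0.397 and 0.334). Ifit1 was also higher in starved cells, by less (3.465, difference adjusted p = 9.03e-07).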

How the data were processed

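The authors deposited raw read counts per RefSeq transcript. Per the submitters' processing notes, TopHat2 2.0.9, bedtools and the build mm9 were used; the sources used here give neither strand nor the handling of multiply matching reads, and reads of overlapping or near-identical genes may be shared. A further 4 columns of per-sample values match no labelled sample and were not used. Of 23366 symbols, 4447 had several rows. In 78.3% of 4677 such further rows (symbols with at least 1000 counts) the count was at least 90% of the top row's, so rows were not added. Chromosomes came from a RefSeq table of another build.

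Counts were tested with edgeR 4.0.16 (R 4.3.3, limma 3.58.1): TMM scaling, filterByExpr (14418 genes kept), a model of all 8 libraries with 1 coefficient per group, which share 1 estimate of the spread (4 residual degrees of freedom, common biological coefficient of variation 0.0341), quasi-likelihood F test, Benjamini-Hochberg adjustment at 0.05. The standard error was derived from the test, as the size of the log2 fold change divided by the root of F. A group with 1 to 6 counts gives a ratio with a 95% Clopper-Pearson interval. DESeq2 1.42.0 was an alternative. The scripts were tested on simulated data. Replicates correlated at r = 0.9911 to 0.9948 across genes, which are not independent, and their counts differed by more than sampling noise (chi-square per degree of freedom 3.37 to 6.21).

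The members and gene lists were chosen with earlier results of these data known. Named genes are autosomal: Kdm3a, fixed anchor genes of each list, the 4 tested members of each list with the largest absolute fold change past the threshold and a mean of at least 1 CPM in a fed group, and the 12 highest and 12 lowest genes with a mean of at least 10 CPM. Genes outside this rule are marked as named after their values were seen. Some genes that the rule names are not reported here. Promoters are the 250 bases before the start in a RefSeq GRCm38.p6 table.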

Additional observations from a re-analysis of the deposited data

Results flagged for a closer look

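The difference between KO-labelled and WT cells passed the threshold in opposite directions in fed and in starved libraries for 22 genes described above, and the difference of the differences passed it too (edgeR, adjusted p under 0.05). Values are log2 fold changes of KO-labelled over WT, and the last is starved minus fed. Matrix, cartilage and signalling genes that were lower in fed and higher in starved KO-labelled cells were Col1a1 (fed -1.46, starved 1.49, difference 2.94), Lox (fed -0.32, starved 0.64, difference 0.96), Tgfbr2 (fed -0.24, starved 0.79, difference 1.03), Sox9 (fed -2.27, starved 1.03, difference 3.3), Hey2 (fed -3.88, starved 0.63, difference 4.5) and Hoxa5 (fed -1.08, starved 0.88, difference 1.95). Other genes lower when fed and higher when starved were Pycr1 (fed -1.61, starved 1.10, difference 2.7), Nfkb1 (fed -0.18, starved 0.19, difference 0.36) and Calr (fed -0.13, starved 0.24, difference 0.37). Among SRF, YAP and TGF-beta genes higher in fed and lower in starved KO-labelled cells were Yap1 (fed 0.29, starved -0.47, difference -0.76), Ctgf (fed 0.51, starved -1.87, difference -2.38), Cyr61 (fed 0.56, starved -0.27, difference -0.84) and Smad7 (fed 0.59, starved -1.92, difference -2.51). Demethylase and receptor genes of the same kind were Jmjd1c (fed 0.29, starved -0.57, difference -0.86), Kdm4b (fed 0.37, starved -0.61, difference -0.97), Ifnar2 (fed 0.13, starved -0.14, difference -0.27) and Rela (fed 0.09, starved -0.13, difference -0.22). Stress and metabolic genes of the same kind were Atf3 (fed 2.67, starved -0.14, difference -2.81), Sqstm1 (fed 0.22, starved -0.91, difference -1.13), Hk2 (fed 0.69, starved -0.16, difference -0.85), Vegfa (fed 0.67, starved -0.80, difference -1.46) and Trp53 (fed 0.55, starved -0.089, difference -0.64). The Calr, Nfkb1, Ifnar2 and Rela differences in fed cells were lost under some settings, as given above. The median gene of the starved comparison differed by 0.073 on the log2 scale, and by 0.39 with library totals. Small starved values therefore depend on the scaling. The opposite directions of Trp53, Rela, Atf3, Ifnar2, Hk2 and Cyr61 rest on such values and are uncertain. No group had the 4 libraries needed to look for outlying samples.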

How the results depend on the processing

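The fed counts kept their size, within 1.5 times, under other size factors, library totals, DESeq2, no filter, the 4 fed libraries alone, summed rows and without X and Y genes. The balance did not: lower genes outnumbered higher ones in the reported fit (5742 against 4980), and higher genes outnumbered lower ones with library totals (5811 against 4737), the 4 fed libraries alone (5521 against 5383) and the 5 CPM minimum (4477 against 4456). Requiring at least 5 CPM in 2 libraries tested fewer genes and left 1110 genes higher and 793 lower by over 2-fold. When each fed library was left out in turn, 4509 to 4614 genes were higher and 5183 to 5317 lower, and 1688 to 1738 were higher and 1481 to 1541 lower by over 2-fold. The same for the starved comparison gave 5417 to 5747 higher and 5151 to 5645 lower, and for the difference of the differences 4656 to 4702 higher and 4100 to 4153 lower. Without genes of chromosomes 1 and 7, an alternative chosen after seeing the data, 1439 genes were higher and 1344 lower by over 2-fold.

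Same-numbered libraries did not deviate together (correlations of -0.019 to 0.014 between groups), so the replicate number shows no pairing. With it as a replicate block, 10530 genes passed in the fed comparison (4892 higher and 5638 lower), against 10722 without it, and 10517 passed in both fits in the same direction. Of the named genes, Ifnz was lost under the block (adjusted p = 0.0697).

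Over 243 named genes and all alternatives, 3289 of 3348 values kept their direction and side of the threshold, 22 lost the call, 37 gained it and none was reversed; 20 genes were concerned, named above. Of 1316 list counts, 45 moved by over 1.5 times. Depth limits what can be said of interferon, germline and other genes with few counts.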
